A study of Mus musculus with 4 samples.

Results

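The 10 genes described here encode enzymes that place or remove methyl groups on lysines 4, 27 and 36 of histone H3: Setd1a, Setd1b, Kmt2a, Kmt2b, Kmt2c, Kmt2d, Setd2, Ezh2, Kdm6a and Kdm6b. They were taken by name, 10 of the 21900 protein-coding genes of the RefSeq annotation of GRCm38.p6, the assembly behind the build mm10. The study compared N6-methyladenosine (m6A), a methyl mark on RNA, between MIN6 cells that had received a vector expressing GR and MIN6 cells that had received a control vector. MIN6 is a mouse insulinoma line (strain C57BL/6 per the labels) that serves as a model of beta cells of the pancreas, and GR, which the labels do not spell out, is read as the glucocorticoid receptor. Both arms took 10 µg of plasmid in each dish by lipofection, with RNA extracted at 24 hours and no other treatment given in the labels. Each arm had 1 library from immunoprecipitation with an anti-m6A antibody and 1 input library, 4 libraries in all.

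The deposited files give, for these enzymes, only whether and how often a gene is listed among genes related to differential m6A peaks, GR against control. No peak position, direction, size or p-value is given for any of the 10, and none is in the deposited table of autophagy peaks, which alone has fold changes. With 1 library of each kind per arm there is no replicate check, the depth is unknown, and a change in m6A cannot be told apart from a change in RNA level. Of 15 beta-cell markers, 12 were listed (among them Ins1, Pdx1, Mafa and Nkx6-1), while Ins2, Iapp and Neurod1 were not. Of 10 markers of other cells, 1 was listed, Gcg. The share over all protein-coding genes was 25.2%, and listing is not a measure of RNA level.

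Trimethylation of H3 lysine 4 (H3K4) marks active promoters and monomethylation marks enhancers. In mammals these marks are placed by the SET1 and MLL enzymes, which work in COMPASS complexes around the shared subunits WDR5, RBBP5, ASH2L and DPY30. H3K27 trimethylation, placed by Polycomb repressive complex 2 (PRC2) with EZH2 as its catalytic subunit, marks silenced genes, and KDM6A and KDM6B remove it. SETD2 places H3K36 trimethylation along transcribed gene bodies, a mark that in other mammalian cells has been linked to where m6A is written on nascent RNA.

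Of the 10 genes, 5 were listed (50.0%, exact Clopper-Pearson 95% interval 18.7% to 81.3%) and 5 were absent. Over all protein-coding genes 25.2% were listed, a value inside that interval, so the share of the 10 cannot be set apart from the background at this list size. The background was 23.8% among genes at least as long as Kmt2b, the shortest of the 10, and 26.4% among genes paired with an Ensembl ID. At least 2 lines were held by 4 of the 10 (40%, 12.2% to 73.8%), against 11.2% of all protein-coding genes, a value just below that interval. The interval covers counting error only. A background of genes expressed in MIN6 cells could not be formed, because no RNA level is given. The listed genes were Setd1b with 10 lines, Kmt2d with 4, Kmt2b with 3, Setd1a with 2 and Ezh2 with 1. Kmt2a, Kmt2c, Setd2, Kdm6a and Kdm6b had 0 lines. By substrate, 4 of the 6 H3K4 methyltransferases were listed (66.7%, 22.3% to 95.7%), as was the H3K27 methyltransferase, and neither the H3K36 methyltransferase nor either H3K27 demethylase was.

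**Figure D1:**
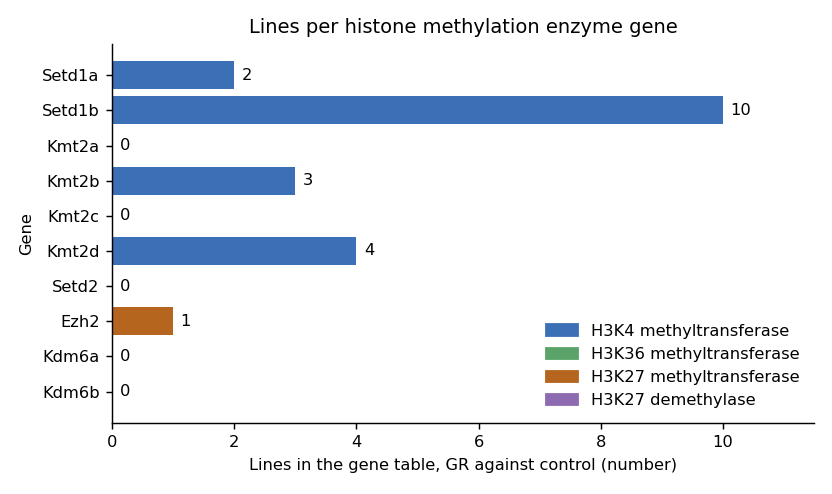
Number of lines of each of the 10 enzyme genes in the deposited gene table, GR against control, coloured by the histone lysine acted on. Setd1b stands at 10 lines, the other 4 listed genes lie between 1 and 4, and the remaining 5 genes are at 0.

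The SET1 branch was listed whole. Setd1a and Setd1b encode the catalytic subunits of the SET1A and SET1B complexes, which in mammalian cells place much of the bulk H3K4 trimethylation. Setd1b (ENSMUSG00000038384, chromosome 5, 123142040 to 123168630 in GRCm38.p6) had 10 lines, whereas Setd1a (ENSMUSG00000042308, chromosome 7, 127777389 to 127800122) had 2. Setd1b spans 26.6 kb and Setd1a 22.7 kb. An unnamed gene model, Gm49388, to which the deposited KEGG table gives the Entrez gene of Setd1a, had 3 lines, and with them Setd1a would have 5. Setd1b alone accounted for 50.0% of the 20 lines of the 10 genes.

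Each MLL branch was listed in part. Kmt2a (MLL1) and Kmt2b (MLL2) encode the menin-associated enzymes that act at Hox genes and other developmental and CpG-rich promoters. Kmt2b (ENSMUSG00000006307, chromosome 7, 30568855 to 30589056) had 3 lines and Kmt2a (ENSMUSG00000002028, chromosome 9, 44803355 to 44881352) had 0. Kmt2c (MLL3) and Kmt2d (MLL4) encode the main H3K4 monomethyltransferases of enhancers. Kmt2d (ENSMUSG00000048154, chromosome 15, 98831669 to 98874077) had 4 lines and Kmt2c (ENSMUSG00000038056, chromosome 5, 25271795 to 25498855) had 0. Kmt2b spans 20.2 kb and Kmt2a 78.0 kb, and Kmt2d spans 42.4 kb and Kmt2c 227 kb. By its own ID the shorter gene of each pair was the listed one. The unnamed model Gm42585, given the Entrez gene of Kmt2c in the KEGG table, had 7 lines, and with them Kmt2c would be listed too, with more lines than Kmt2d. The older name Mll2 belongs to both Kmt2b and Kmt2d in RefSeq, and the genes were told apart by Ensembl ID.

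Ezh2 (ENSMUSG00000029687, chromosome 6, 47530274 to 47595270), whose product is known in beta cells for repressing the cell cycle inhibitor locus Cdkn2a, had 1 line. Setd2 (ENSMUSG00000044791, chromosome 9, 110532500 to 110618633) had 0. So did Kdm6a (ENSMUSG00000037369, X chromosome, 18160862 to 18279936), which encodes UTX, a demethylase that is also a subunit of the MLL3 and MLL4 complexes. Kdm6b (ENSMUSG00000018476, chromosome 11, 69398508 to 69420367), which encodes the inducible demethylase JMJD3, had 0 as well. Absence from the gene table does not show that a transcript lacked a differential peak, because the rule by which genes entered it is not given.

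The files do not say what a line represents. For each of the 5 listed enzymes all lines are the same text, so their 20 lines hold 5 distinct texts. The median over the 5 listed genes was 3 lines, against a median of 1 and a mean of 1.85 over the 5526 listed protein-coding genes. Of those 5526 genes, 44.5% had at least 2 lines, 19.4% at least 3 and 9.79% at least 4, so Setd1a, Kmt2b and Kmt2d lay in the upper range without standing outside it. At least 10 lines were held by 15 genes (0.271%), and Setd1b was the only one at exactly 10. Of the 14 genes above it, 8 were clustered protocadherins. In order of lines, the listed genes have 3 (Setd1b), 15 (Kmt2d), 4 (Kmt2b), 1 (Setd1a) and 16 (Ezh2) RefSeq transcripts. The genes with 0 lines have from 6 (Kmt2a) to 30 (Kmt2c), and with the model Gm42585 Kmt2c would have 7 lines. A link of transcript number with lines was not tested.

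**Figure D2:**
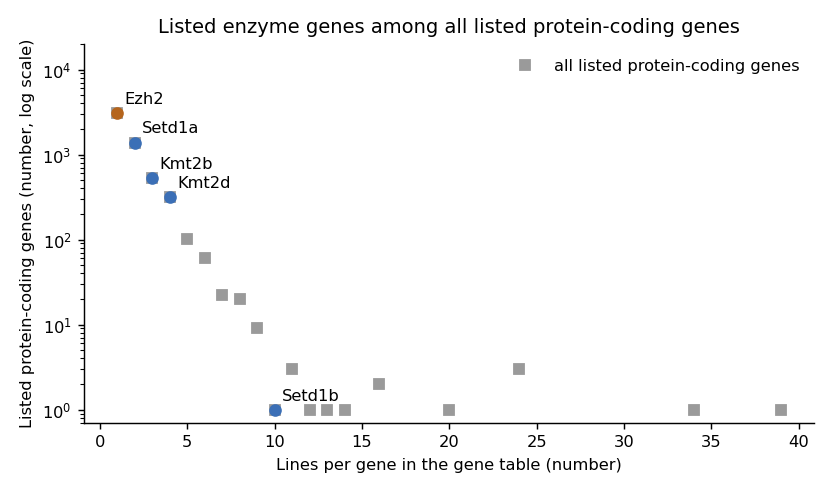
Number of listed protein-coding genes (log scale) at each number of lines, with the 5 listed enzyme genes marked on the class they fall in. Ezh2 sits in the largest class, at 1 line, and Setd1b is the only gene at 10 lines.

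Gene span moved with listing and its part was not tested. The listed enzyme genes spanned 20.2 to 65.0 kb (median 26.6 kb), and those not listed had a median of 86.1 kb. Ranges overlapped through Kdm6b, which at 21.9 kb was as short as Setd1a but had 0 lines. Over all protein-coding genes in 10 classes of equal size, the listed share was 29.1% in the class of Setd1a, Kmt2b and Kdm6b (17.1 to 24.6 kb), 26.6% in that of Setd1b and 25.4% in that of Kmt2d. It was 23.8% in the class of Ezh2, Kmt2a and Setd2 and 17.4% among the longest genes, which include Kmt2c and Kdm6a. The lowest share, 5.02%, was that of the shortest class, and the highest, 32.6%, that of genes of 11.6 to 17.1 kb, so the share did not fall steadily with span.

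**Figure D3:**
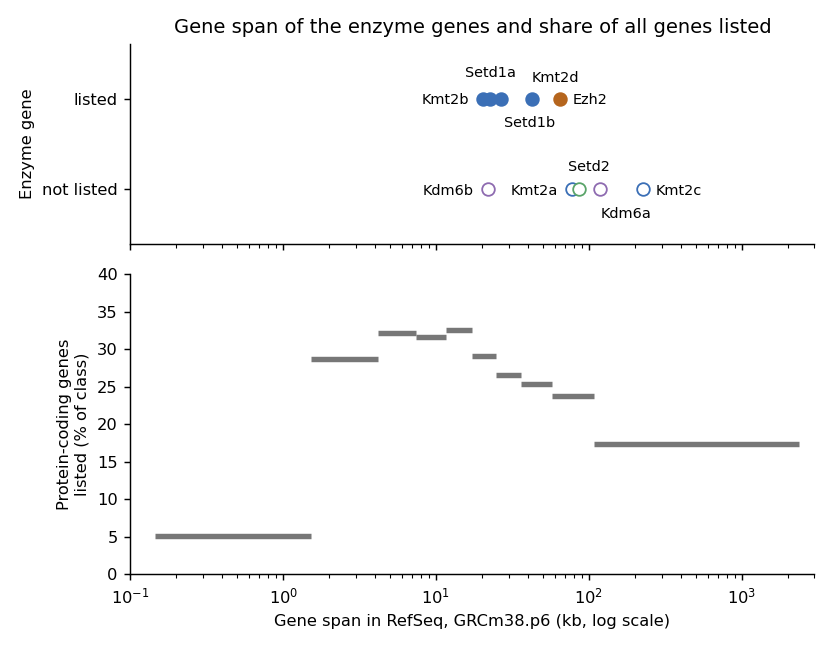
Upper panel: span of each enzyme gene (kb, log scale) by whether it was listed. Lower panel: percentage of protein-coding genes listed in each of 10 classes of span, drawn over the range of the class; the share is 5.02% in the shortest class, highest at 32.6% and 17.4% in the longest class, where Kmt2c and Kdm6a lie.

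Protein-coding genes within 1 kb of an enzyme gene were also looked up, a choice made after the lines were seen. Kmt2a had 0 lines, against 9 for Ttc36, which lies 404 bp away on its 3' side. Kmt2d had 4 lines, against 7 for Prkag1, a gene 161 bp away on its 3' side that encodes a regulatory subunit of the energy sensor AMPK. Hsd3b7, 487 bp from Setd1a on its 3' side, had 2 lines. Beside Setd1b, which had 10 lines, the neighbour Rhof at 232 bp had 0. Kmt2b had Zbtb32 at 624 bp with 0 lines and Igflr1 at 893 bp with 1. Kdm6b had Tmem88 at 274 bp and Dnah2 at 440 bp, both at 0. The other 4 enzyme genes had no such neighbour. How a peak near the border of 2 genes was assigned is not stated, so lines of Ttc36 and Prkag1 cannot be told apart from peaks of the enzyme genes beside them.

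The gene table also names the protein domains of each listed gene, and of no other gene. The share of all genes with a given domain that were listed can therefore not be given. All 5 listed enzymes carry the SET domain, the catalytic fold of most lysine methyltransferases, and they are 5 of 16 listed IDs that do. In order of lines, Setd1b, Kmt2d and Kmt2b head that set, followed by Setd1a with 2 lines and Ezh2 with 1. The 11 IDs outside the 10 enzymes (among them Ehmt2, Nsd2, Setd3 and Suv39h1) have 1 or 2 lines each. Setd1a and Setd1b shared 6 of 8 domain names each, including an RNA recognition motif and the N-SET domain, and no other listed gene has the N-SET domain. Kmt2b and Kmt2d shared 9 names, of 12 for Kmt2b and 13 for Kmt2d, including PHD fingers and the FY-rich regions. A CXXC zinc finger, which binds unmethylated CpG, is named for Kmt2b and a high mobility group box for Kmt2d. Ezh2 shared only the SET domain with each of the other 4. The JmjC domain, the catalytic fold of KDM6A and KDM6B, was named for 11 listed IDs. They were led by Riox2 with 5 lines and include the demethylase genes Kdm2a, Kdm3a, Kdm3b, Kdm5a, Kdm5c and Phf2.

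Of 74 other histone lysine methylation genes in 10 lists, 27 were listed (36.5%, 25.6% to 48.5%), with a median of 2 lines among those listed. The lower end of that interval is close to the background of 25.2% and below the 26.4% of genes paired with an Ensembl ID. Every gene of the lists is so paired, and the lists were chosen with earlier results of these data known. The share was 44.4% (12 of 27) for complex subunits, 33.3% (7 of 21) for demethylases and 30.8% (8 of 26) for methyltransferases. The exact 95% intervals run from 25.5% to 64.7% for the subunits, 14.6% to 57.0% for the demethylases and 14.3% to 51.8% for the methyltransferases. The intervals of both enzyme groups include the background, and that of the subunits begins just above 25.2% but includes 26.4%. The background takes in genes that MIN6 cells may not express, so a share above it cannot be tied to GR.

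Of the subunits that work with the H3K4 enzymes, 6 of 15 were listed (40%, 16.3% to 67.7%), an interval that includes the background of 25.2%. Bod1l, whose human product associates with the SET1 complexes, led with 8 lines, followed by Bod1 and Hcfc1 with 2 each. Men1, which encodes the menin subunit of the complexes of Kmt2a and Kmt2b, had 1 line. Paxip1, a subunit of the complexes of Kmt2c and Kmt2d, had 2 and so did Psip1. The 4 core subunits Wdr5, Rbbp5, Ash2l and Dpy30, singled out after their values were seen, all had 0 lines, as did the SET1 subunits Cxxc1 and Wdr82. Pagr1a, which works with Paxip1, had 0 lines, but a near-identical copy, Pagr1b, had 3, and reads of the copies may not be separable. None of the 7 other genes named for H3K4 methylation was listed (Kmt2e, Setd7, Smyd1, Smyd2, Smyd3, Prdm9 and Ash1l). The exact 95% interval of this share, 0% to 41%, includes the background of 25.2%.

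Around Ezh2, 6 of 12 PRC2 genes were listed (50.0%, 21.1% to 78.9%), an interval that includes the background of 25.2%. Epop and Rbbp7 had 2 lines each, and Aebp2, the core subunits Eed and Suz12, and Rbbp4 had 1 each. Ezh2, Eed and Suz12, singled out after their values were seen, thus had 1 line each. A count of 1 line was the most common, held by 3068 of the 5526 listed protein-coding genes. Ezh1, the paralog of Ezh2, had 0 lines, as did Jarid2, Phf1, Mtf2, Phf19 and Lcor.

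Although Setd2 was absent, 5 of 6 genes of the list of other H3K36 methyltransferases were present (83.3%, against 25.2% of all protein-coding genes). Nsd2 had 2 lines and Nsd1 had 1, both encoding enzymes of H3K36 dimethylation, and their relative Nsd3 had 0. Setd3, with 2 lines, is better known as an actin histidine methyltransferase, and Setd5 and Setmar had 1 line each. The exact 95% interval of this share, 35.9% to 99.6%, rests on 6 genes, chosen with earlier results known. The share depends on which genes are counted, since the list holds Setd3 and leaves out Setd2.

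Of the H3K9 methyltransferases, Ehmt2 (G9a) and Suv39h1 had 2 lines each, and the other 7 of 9, Suv39h2, Ehmt1, Setdb1, Setdb2, Prdm2, Mecom and Prdm16, had 0. The listed share, 22.2% (exact 95% interval 2.81% to 60%), was near the background of 25.2%. Kmt5a, the H4K20 monomethyltransferase, had 1 line, and Dot1l, Kmt5b and Kmt5c had 0. That is 1 of 4 genes (25%, 0.631% to 80.6%), also near the background.

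Some demethylases of other lysines were listed. The share was 42.9% (3 of 7) for H3K4, 30% (3 of 10) for H3K9 and 33.3% (1 of 3) for H3K36. The exact 95% intervals, 9.9% to 81.6%, 6.67% to 65.2% and 0.84% to 90.6% in that order, all include the background of 25.2%. Kdm5c had 2 lines, and Kdm1a (LSD1) and Kdm5a had 1 each, all of them H3K4 demethylases, while Kdm1b, Kdm5b, Kdm5d and Riox1 had 0. Of the H3K9 demethylases, Kdm3a and Kdm3b had 2 lines and Phf2 had 1, and Jmjd1c, Kdm4a, Kdm4b, Kdm4c, Kdm4d, Kdm7a and Phf8 had 0. Kdm2a, which acts on H3K36, had 1 line, and Kdm2b and Kdm8 had 0. Uty, the Y-linked relative of Kdm6a, had 0.

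**Figure D4:**
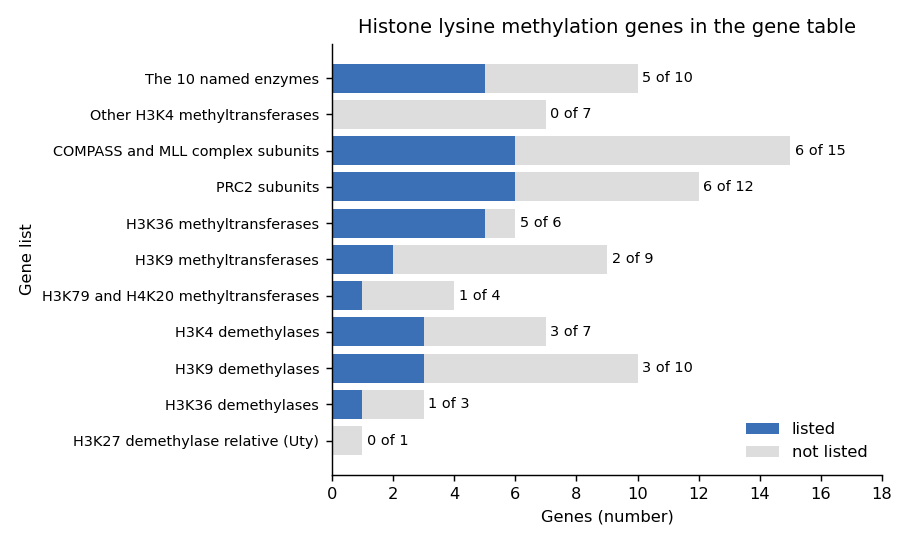
Number of genes listed (blue) and not listed (grey) in the set of 10 named enzymes and in each of 10 lists of other histone lysine methylation genes. Of the 10 named enzymes 5 are listed, of the other H3K36 methyltransferases 5 of 6, and of the other H3K4 methyltransferases 0 of 7. The exact 95% intervals of the named enzymes and of the other H3K4 methyltransferases include the background of 25.2%. That of the H3K36 list lies above it, rests on 6 genes and depends on which genes are counted, since the list holds Setd3 and leaves out Setd2.

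In the deposited KEGG table, 2 of 290 pathways held any of the 10 genes among their input IDs. Enzymes with 0 lines could not appear there by their own ID. The row Lysine degradation counted 22 input IDs against 53 background genes, at p = 0.00206 (adjusted p = 0.00415) in the authors' deposited table. That is rank 144 by p in a table where 194 pathways had an adjusted p below 0.05. Over all protein-coding genes 25.2% were listed, a lower share than 22 of 53, and the difference was not tested here. The row held Setd1a, Setd1b, Kmt2b and Kmt2d. Lysine methyltransferases belong to this pathway because trimethylated lysine is an intermediate of lysine metabolism, and 10 of its 22 IDs were named histone methyltransferase genes. Those 10 were 4 of the enzymes described here and 6 genes of the other lists (Ehmt2, Kmt5a, Nsd1, Nsd2, Setmar and Suv39h1). A further 2 IDs were unnamed gene models. The remaining 10 were metabolic or collagen-modifying enzymes such as Aldh7a1, Gcdh, Ogdh, Pipox and Plod2. This split was made after the row was seen, and the histone methyltransferase genes among the 53 background genes were not counted.

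The unnamed models bear on the count of the enzymes themselves. Gm42585, with 7 lines and no domain name, was given the Entrez gene of Kmt2c, so the pathway counts Kmt2c although Kmt2c itself had 0 lines. Gm49388, with 3 lines, was given the Entrez gene of Setd1a, so Setd1a was counted by 2 IDs, its own with 2 lines being the other. By distinct Entrez gene the row holds 21 genes, and without both models 20. The second pathway, MicroRNAs in cancer, counted 73 input IDs against 281 (p = 0.00784, adjusted p = 0.0139 in the authors' deposited table, rank 164). Its share listed, 73 of 281 or 68 of 281 by distinct Entrez gene, was near the 25.2% of all protein-coding genes. The pathway held Ezh2 and a model with 1 line, Gm26625, given the Entrez gene of Ezh2. None of the 3 models is in the RefSeq table used, so where they lie was not looked up.

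In the deposited Gene Ontology (GO) table, 62 terms had histone and methyl in their names, and 13 of them held any of the 10 genes. A term names only its listed genes, so the 5 absent enzymes could not appear, whatever terms they belong to. Kmt2b was in 10 of these terms, Ezh2 in 8, and Setd1a, Setd1b and Kmt2d in 7 each. The 5 listed enzymes were together in 5 terms. Histone methylation had 45 of 138 background genes listed (32.6%, exact 95% interval 24.9% to 41.1%), and histone lysine methylation had 38 of 111 (34.2%). The highest share of the 5 was that of histone methyltransferase complex, 37 of 83 (44.6%, 33.7% to 55.9%). Histone methyltransferase activity had 19 of 55 (34.5%) and histone-lysine N-methyltransferase activity 16 of 42 (38.1%).

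Kmt2b, Kmt2d, Setd1a and Setd1b were together in 2 terms for H3K4. Of these, histone H3-K4 methylation had 23 of 60 genes listed (38.3%, 26.1% to 51.8%), and the H3-K4 specific methyltransferase activity 7 of 18 (38.9%). Of the 5 listed enzymes, Kmt2b alone was in regulation of histone methylation (27 of 72, 37.5%) and regulation of histone H3-K4 methylation (13 of 30, 43.3%). It was also alone in histone H3-K4 trimethylation, where 4 of 16 genes were listed (25.0%, 7.27% to 52.4%). Ezh2 alone of the listed enzymes was in histone H3-K27 methylation, 8 of 19 (42.1%, 20.3% to 66.5%). No term for demethylation held any of the 10, but Kdm6a and Kdm6b had 0 lines and could not appear in one. Histone demethylation had 9 of 29 genes listed (31.0%), and 13 of the 62 terms were of this kind.

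All 16568 terms, these 62 included, had p = 1 in the authors' deposited table, so no term was called there. The same value stood even for terms with every background gene listed, so it cannot be read as a test result for or against any term. Over all GO terms, 5409 distinct IDs of 20770 background genes were listed, 26.0%, while the deposited total of 10022 would give 48.3%. Of the 62 terms, 53 lay above 26.0%. Each of the 62 held at least 1 listed gene, so the smallest terms, such as one with 1 of 3 genes listed (33.3%), could not lie below 26.0%. The count is therefore raised by how the terms entered the table, and it was not tested. The 95% intervals of histone methylation and histone lysine methylation include 26.0% and lie below 48.3%, and that of histone methyltransferase complex lies above 26.0% and includes 48.3%. Terms share most of their genes and are not independent. Each of the 7 terms that held Setd1a also counted its model Gm49388, which shared 68 GO terms with Setd1a in all. Setd1b had the most lines of any gene in histone methylation, ahead of Kmt2d, Brca1 and Rif1 with 4 each, and in histone methyltransferase complex only Taf7, with 12, had more.

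**Figure D5:**
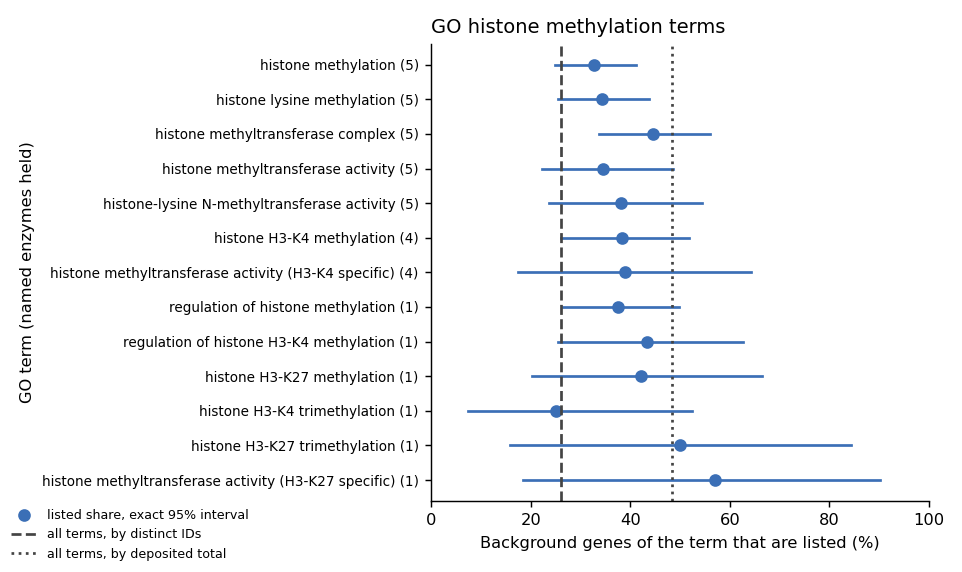
Percentage of the background genes listed, with exact 95% intervals, for the 13 histone methylation terms whose listed genes include any of the 10 enzymes (number included in brackets). The dashed line is the 26.0% of distinct IDs over all terms and the dotted line the 48.3% of the deposited total; 10 of the 13 intervals include the value of the dashed line.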

How the data were processed

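MIN6 cells with GR or control vector gave 1 anti-m6A and 1 input library per arm. Per the submitters' processing notes, tools were HOMER 4.9.1 and BWA 0.7.12 and the build was mm10; thresholds for peaks are not given in the sources used here. The gene table deposited by the authors has an ID, a symbol and domain names per line and no measured value. Counts of genes per term or pathway were deposited by the authors, as were p-values, computed for KEGG with a hypergeometric or Fisher test and Benjamini-Hochberg adjustment per the file headers.

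Lines were counted per Ensembl ID, with symbols from a gene name table (9217 of 9225 IDs matched), and 63 overflow lines of the GO table were joined to their terms. Table reading was tested on simulated data. RefSeq classes and spans were matched by symbol. The 10 enzymes and the lists were chosen with earlier results of these data known, and no test was run. Of the lists, the 3 genes with most lines were named by rule, with genes of 0 lines in lists of up to 12. Of the GO terms, the 10 holding most of the enzymes were named by rule. Further genes of the lists, and the terms histone H3-K4 trimethylation and histone demethylation, were named outside these rules. SciPy 1.17.1 and NumPy 2.4.6 under Python 3.11.15 gave the values and Matplotlib 3.10.9 the plots.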

Additional observations from a re-analysis of the deposited data

How the results depend on the processing

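The number of enzymes listed, 5, was 5 when matched by written symbol or over methyltransferases only, and 4 with at least 2 lines, which drops Ezh2. Their 20 lines were 20 by written symbol, 10 without Setd1b and 5 with identical lines counted once. With the lines of the unnamed models added to the gene whose Entrez ID they carry, 6 enzymes were listed, on 31 lines. Of the other histone lysine methylation genes, 27 were listed by ID or by written symbol, 28 with Pagr1b counted for Pagr1a, and 14 with at least 2 lines, a minimum that 11.2% of all protein-coding genes reach. The background of 25.2% was 23.8% among genes at least as long as Kmt2b and 26.4% among genes paired with an Ensembl ID. Histone methylation kept 45 IDs by its deposited list and 44 without Gm49388, and 11 of the 13 GO terms had 10 to 500 background genes. Lysine degradation had 22 IDs, 21 Entrez genes, and 20 without both models. The settings with Pagr1b, Ensembl pairing and models left out or added were added after the data were seen. A recomputed Fisher p for Lysine degradation was not run, because no enrichment test was made here. No paired analysis was possible because each arm had 1 library of each kind and the files hold no value per library.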
